A study of Mus musculus with 5 samples.

Results

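The mRNAs of 10 cytosolic aminoacyl-tRNA synthetases, Aars, Dars, Gars, Nars, Sars, Wars, Iars, Mars1, Tars and Eprs, were followed in direct RNA nanopore libraries of mouse embryonic stem cells (mESCs), and the genes were taken from a named list. Members of the data were all adenosine positions of the deposited tables that lay on an exon of these genes on the strand of the call (mm10, GENCODE M21). The METTL3 inhibition dataset held 2576 such positions out of 471848, on 9 of the 10 genes, among 2726 genes with a covered position. The Mettl5 dataset held 1907 out of 195787, on 8 of the 10 genes, among 1084 genes. No position of Iars was analysed in either dataset, and none of Wars in the Mettl5 dataset. The gene called Mars1 in current nomenclature is annotated as Mars in GENCODE M21.

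The study asked how far m6A calls on single RNA molecules depend on METTL3, the catalytic subunit of the enzyme complex that places m6A on mRNA, and on METTL5, which places m6A on 18S rRNA. In the inhibition dataset, E14 mESCs grown in serum with LIF and 2i received 30 µM of the METTL3 inhibitor STM2457 for 48 h (1 library) or 0.025% v/v DMSO (1 library). Both of these libraries came from 1 engineered line that carries a pair of fluorescent reporters of 2C-like cells, an inducible APOBEC1-YTH transgene and a degradable METTL3 allele, neither of them induced here. In the Mettl5 dataset, 1 wild-type (WT) library was set beside 2 libraries from independent Mettl5-KO clones, so each clone is 1 edited line. There were no replicates of DMSO, STM2457 or WT, so every p below compares libraries and every interval covers counting error only.

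The 5 libraries held 17897440 to 71574467 valid calls at the tabulated positions, with a median of 45 to 64 valid calls per position and at least 25 at every position in every library of its dataset. Of the calls, 8.31 to 9.15% had failed the confidence filter. Of 12 naive mESC markers 11 had covered positions in the inhibition dataset, whereas the marker lists for fibroblasts, primitive endoderm, neural cells, mesoderm and 2C-like cells had none. Lower depth of an mRNA in these bulk libraries can reflect fewer cells that carry it or less RNA per cell, which cannot be told apart. The paper also warns that direct RNA sequencing favours the 3′ end and shorter transcripts. It gives shorter median reads for STM2457 than for DMSO, and the part of read length in depth was not tested.

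Aminoacyl-tRNA synthetases join each amino acid to its cognate tRNA and so supply the ribosome with its substrates. In the cytosol several of them, including the enzymes for aspartate, isoleucine, methionine and the bifunctional glutamate and proline enzyme, sit in a multi-synthetase complex held by scaffold proteins, while those for alanine, glycine, asparagine, serine, threonine and tryptophan are found outside it. Many synthetase genes are induced by the transcription factor ATF4 when amino acids are short. On mRNA, m6A is typically placed at DRACH 5-mers (D is A, G or T, R is A or G, H is A, C or T) in long last exons around and after the stop codon, and away from splice junctions.

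A site was a position with more than 25 valid calls in each library of its dataset and an m6A level, the share of valid calls that were m6A, of 25% or more in at least 1 of them. The RNA around the sites on which the results turn is shown here as 21 bases of the annotated transcript, 5′ to 3′, from the GENCODE M21 transcript sequences on mm10. Capitals mark the 5-mer with the called adenosine in its middle. The names give the distance in nucleotides (nt) from the last base of the stop codon, with minus signs inside the coding sequence (CDS).
Aars -4 (chr8:111055190-111055210, plus strand): gatgtgaaGAACTgatgggag
Aars 353 (chr8:111055547-111055567, plus strand): aataaaaaGGACCatgtgcaa
Sars 11 (chr3:108426809-108426829, minus strand): gcactgccAGACTtacttact
Sars 53 (chr3:108426767-108426787, minus strand): ctgccctgGGACAgagaggcc
Sars 93 (chr3:108426727-108426747, minus strand): gtcccatcTGACTgcacagcg
Sars 127 (chr3:108426693-108426713, minus strand): tctgccgtGGACAgagcaggt
Wars 739 (chr12:108860516-108860536, minus strand): ctgattatGGACCaggctggg
Wars 953 (chr12:108860302-108860322, minus strand): ttgacactTGACTgacgggga
Tars -553 (chr15:11387701-11387721, minus strand): ggagccttCTATGggccaaag
Eprs -1576 (chr1:185407668-185407688, plus strand): caagggaaAGACTcttccaaa

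Of these 10 sites, 9 hold a DRACH 5-mer. The exception is the site of Tars, where the called adenosine is followed by TG. The Aars site lies in the last codon before the stop codon, AAC, at base 2 of it. The Wars distances are counted on Wars-201, because the covered positions ran on through the stretch that the isoform Wars-204 splices out. Read on Wars-204, the site at 953 would be the last base of the stop codon.

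The last exon of Aars needs a separate account. Its annotated 3′ UTR of 2460 nt runs over Exosc6, a gene without introns on the same strand that encodes a subunit of the RNA exosome (chr8:111056339-111057664). The analysed positions of Aars ended at chr8:111055569 and resumed at chr8:111056349, with 779 nt between them, inside Exosc6. In the last exon before this gap the median coverage was 354 valid calls in DMSO and 225 after STM2457, and in the 218 positions behind it 120 in each library. The first position behind the gap, 1145 nt after the Aars stop codon, had 28 valid calls in DMSO and 31 after STM2457. Positions behind the gap are annotated to both genes, and none inside the gap was analysed. Which gene the calls came from was not tested. These positions are given as the stretch shared with Exosc6 and kept apart from the positions that only Aars claims.

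**Figure D1:**
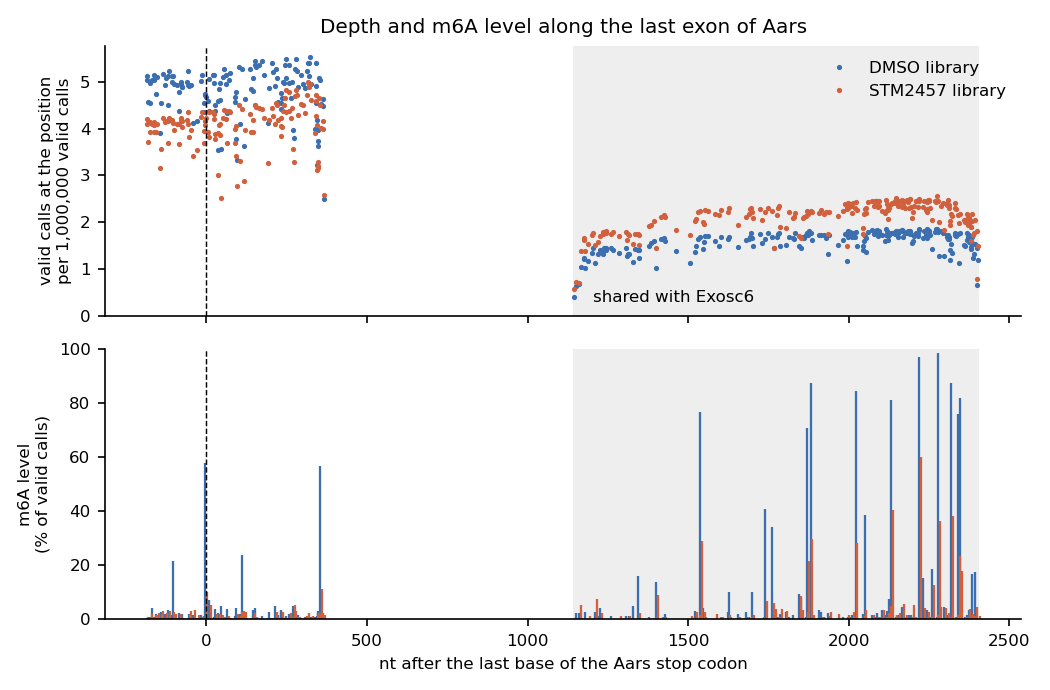
Valid calls at each position per 1000000 valid calls of the library (top) and m6A level in percent of valid calls (bottom) along the last exon of Aars, by distance in nt from the last base of the stop codon, for the DMSO library (blue) and the STM2457 library (orange, bars moved 6 nt to the right). In the grey stretch shared with Exosc6 the scaled depth was higher after STM2457, and in front of the gap it was lower; the m6A bars fell in both.

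In the inhibition dataset 22 sites lay on the synthetase genes, of 6201 sites over all genes, and they fell on 4 of the 10: Aars, Sars, Wars and Tars. Outside the shared stretch there were 9 sites, 2 of Aars, 4 of Sars, 2 of Wars and 1 of Tars. The other 13 lay in the shared stretch. Gars, Nars, Dars, Mars1 and Eprs had covered positions and no site. All 22 levels were lower after STM2457, and 20 of the 22 decreases passed Fisher's exact test with Benjamini-Hochberg adjusted p under 0.05, against 91.5% of all sites in this comparison. By gene claim, 7 of the 9 sites outside the shared stretch and 13 of the 13 inside it passed. The synthetase share is near that of all sites. All 22 sites had 25% or more in DMSO, and 8 of them after STM2457. Over all genes 6096 of the 6201 sites did in DMSO and 1377 after STM2457. Most sites were thus chosen through the library in which they were high, which favours a decrease in the same counts.

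Aars encodes the alanyl-tRNA synthetase. At Aars -4, 196 of 339 valid calls were m6A in DMSO (57.8%, exact 95% interval 52.4 to 63.1) and 22 of 220 after STM2457 (10%, 6.37 to 14.7), a relative decrease of 82.7% (adjusted p = 8.1e-32, Fisher's exact test). At Aars 353, 205 of 361 calls (56.8%) became 27 of 243 (11.1%), a relative decrease of 80.4% (adjusted p = 8.23e-31 by the same exact test). At the first the level fell by 47.8 percentage points, at the second it fell by 45.7, and their intervals did not overlap between the libraries. They carried the deepest coverage of the 9 sites.

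Sars encodes the seryl-tRNA synthetase, and its 4 sites stood within 127 nt of the stop codon. At Sars 11 the level was 55.8% (72 of 129 calls) in DMSO and 8.93% (5 of 56) after STM2457, with adjusted p = 1.9e-09 by the exact test. At Sars 53 it was 28.2% and 6.78%, at Sars 93 34.7% and 6.78%, with adjusted p of 0.00074 and 3.85e-05 by the same exact test. At Sars 127, 48 of 131 calls were m6A in DMSO (36.6%) and 0 of 61 after STM2457, which allows a level of up to 4.92% (adjusted p = 1.49e-09, exact test). All 4 sites lay in the 3′ UTR and all 4 passed.

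Wars encodes the tryptophanyl-tRNA synthetase. At Wars 953, 21 of 43 calls (48.8%) in DMSO stood against 2 of 34 (5.88%) after STM2457, with adjusted p = 5.69e-05 by the exact test. At Wars 739, 17 of 46 (37.0%) stood against 4 of 28 (14.3%), a relative decrease of 61.3% with a 95% interval of -3.27 to 85.5%. That difference did not pass the exact test (adjusted p = 0.066). With under 50 calls per library the Wars sites were the least deeply covered.

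Tars encodes the threonyl-tRNA synthetase, and its site lay in exon 14 of 19, in the CDS. There 35 of 72 calls (48.6%) were m6A in DMSO and 19 of 50 (38.0%) after STM2457, a relative decrease of 21.8% with an interval of -19.7 to 49.0% (adjusted p = 0.283, Fisher's exact test). This was the 1 site outside the shared stretch that stayed at 25% or more with the inhibitor. Of the calls at this position 35.7% had failed in DMSO and 18% after STM2457, and with failed calls in the denominator the relative decrease was 0.328% in place of 21.8%. Over all genes, 120 sites had TG after the called adenosine, 1.94% of the sites. Among the 88 of them with 25% or more in DMSO, as in Tars, the median relative decrease was 16.1%. Over all DRACH sites, taken without that limit on the DMSO level, it was 80.8%. Over the 120 sites the median share of failed calls in DMSO was 35.9%, against 3.23% at DRACH sites. This grouping by the following bases was chosen after the values were seen.

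In the stretch shared with Exosc6 the 13 sites ran from 33.9 to 98.4% in DMSO, with a median of 81.1%, and from 3.25 to 60% after STM2457, with a median of 28.2%. The highest was Aars 2278, where 126 of 128 calls became 48 of 132 (36.4%). At Aars 2220, 128 of 132 calls (97.0%) became 81 of 135 (60%), the smallest relative decrease of the 13 at 38.1%. All 13 had a DRACH 5-mer, all passed the exact test, and 7 remained at 25% or more.
Aars 2220 (chr8:111057414-111057434, plus strand, shared with Exosc6): gttggaaaGGACTtgggctgg
Aars 2278 (chr8:111057472-111057492, plus strand, shared with Exosc6): taggagatGGACCcagtgcag

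Outside the shared stretch the 9 sites had a median of 48.6% in DMSO and 8.93% after STM2457, with a median relative decrease of 80.4%. Over all 6201 sites the medians were 51.9%, 10.5% and 79.9%. In the shared stretch the median relative decrease was 66.5%. A relative decrease of 50% or more was seen at 8 of the 9 and at 12 of the 13 sites, against 88% of all sites.

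**Figure D2:**
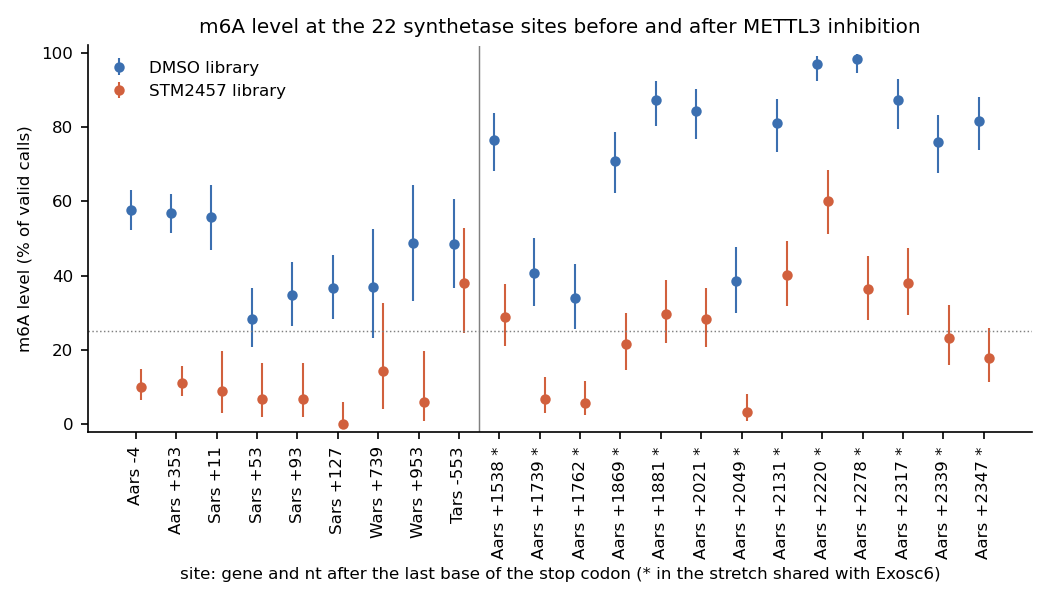
m6A level in percent of valid calls at the 22 synthetase sites in the DMSO (blue) and STM2457 (orange) libraries, with exact 95% intervals as bars; names give the gene and the nt after the last base of the stop codon, and asterisks mark the stretch shared with Exosc6. The intervals are apart at 20 sites and overlap at Wars 739 and Tars -553; the dotted line is the 25% used to choose sites.

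Values below the threshold came from genes that have no site in this dataset as well as from Aars, Sars and Tars. In Gars, the glycyl-tRNA synthetase, the position 83 nt after the stop codon had 99 m6A calls of 416 (23.8%) in DMSO and 10 of 237 (4.22%) after STM2457, and the position at 70 nt went from 18.6 to 4.07%. In Nars, the asparaginyl-tRNA synthetase, 3 positions in the 3′ UTR had 20.3 to 22.6% in DMSO and 2.86 to 8.82% after STM2457. Aars had 21.3% and 0.897% at -103 and 23.5% and 2.93% at 110. In Dars, the aspartyl-tRNA synthetase, the DRACH position at 340 nt had 8 of 45 calls (17.8%) and 1 of 37 (2.70%). Other positions below the cutoff moved less. Aars -1654, the closest to it, had 31 of 129 calls (24.0%) in DMSO and 11 of 60 (18.3%) after STM2457, and Aars -1421 had 16.3 and 13.1%. In the CDS of Sars the position at -65 had 15.9 and 14%, and the Nars positions at 854 and -800 had 16.7 and 12% and 19.4 and 21.2%. The Nars position at -800 was thus slightly higher after STM2457. A further pair was higher by more, Tars -813 with 6 of 77 calls (7.79%) and 9 of 42 (21.4%), and Dars 207 with 4.88 and 23.5%. With sites chosen at 10% or more, 39 positions outside the shared stretch counted as sites and 17 of them passed, against 53.4% of all sites chosen so.

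The sites were set against all DRACH positions of the same genes. Outside the shared stretch the synthetase genes had 200 DRACH positions with more than 25 calls in both libraries, of which 8 (4%) had 25% or more m6A in DMSO, against 14.2% over all genes. All 8 lay among the 71 positions in last exons (11.3%, all genes 18%), and none among the 129 in first or internal exons (all genes 3.97%). None of 136 positions within 100 nt of an exon junction reached 25% (all genes 2.07%), while 8 of 64 farther away did (12.5%, all genes 20.4%). The shares are descriptions of unequal stretches, since most analysed positions of Aars, Tars and Mars1 lay in internal exons.

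**Figure D3:**
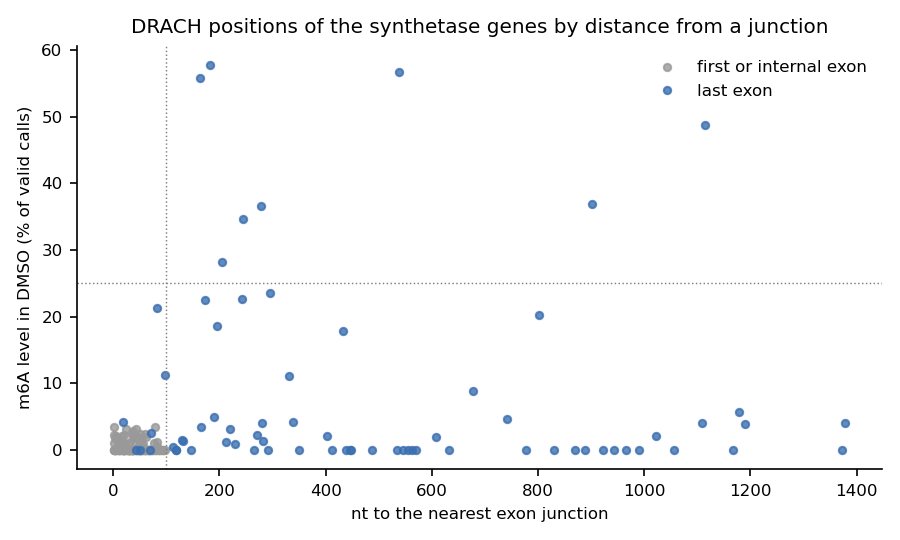
m6A level in DMSO in percent of valid calls at the 200 DRACH positions of the synthetase genes outside the stretch shared with Exosc6, by distance in nt to the nearest exon junction; grey points are in first or internal exons and blue points in the last exon. Positions in first and internal exons stay near 0, and the 8 positions above the dotted 25% line are in last exons beyond the dotted 100 nt line.

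Pooled over these 200 positions, the m6A level was 4.22% in DMSO and 0.921% after STM2457, against 7.24% and 1.89% over all genes. Among the genes the pooled DRACH level in DMSO was highest in Sars (10.5%, 224 of 2126 calls), followed by Wars (7.15%), Gars (5.40%), Aars outside the shared stretch (4.58%) and Nars (2.49%). It was 1.34% in Dars, 0.946% in Mars1, the methionyl-tRNA synthetase, and 0.348% in Tars. After STM2457 the same values were 2.17% in Sars, 1.90% in Wars, 1.17% in Gars, 0.921% in Aars, 0.847% in Nars, 0.180% in Dars, 0.724% in Mars1 and 0.126% in Tars. Every gene was lower with the inhibitor, and Mars1, with 15 m6A calls in DMSO and 5 after STM2457, moved least relative to its level. Eprs had no DRACH position with more than 25 calls. Tars and Mars1 were analysed in their coding exons only. In the shared stretch the pooled level was 47.1% over 22 positions and fell to 16.6%.

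Depth was compared as valid calls per 1000000 of the library over the covered positions of a gene, which carries no test with 1 library per condition. In DMSO the level per covered position was highest for Gars at 5.21 scaled calls, then Aars outside the shared stretch (3.55), Mars1 (1.86), Sars (1.39), Tars (1.31), Nars (1.0), Dars (0.679), Wars (0.658) and Eprs (0.349), the bifunctional glutamyl-prolyl enzyme. The order compares unlike stretches, since Gars was covered in its last exon only, Aars in exons 5 to 21 and Mars1 in exons 15 to 18. In the last exon the median coverage in DMSO was 385 valid calls for Gars and 354 for Aars outside the shared stretch. Counting error alone does not separate Dars, with 58 calls at its most covered position (exact Poisson interval 44.0 to 75.0), from Wars with 56, nor Sars (135) from Nars (130, interval 109 to 154). Eprs had 13 positions at 25 calls in DMSO and is left out of the counts below, which take genes with 20 or more positions.

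After STM2457, Mars1 and Sars were 1.5-fold or more lower, 2 of the 8 synthetase genes counted, against 5.02% of 2590 genes. None was 1.5-fold or more higher, against 13.4%. Mars1 went from 1.86 to 1.06 scaled calls per position (0.572-fold, log2 ratio -0.81), and at its most covered position the log2 ratio had an interval of -1.21 to -0.42. Sars went from 1.39 to 0.805 (0.581-fold, log2 ratio -0.78, interval -1.20 to -0.29). Of all genes, 1.47% had a lower log2 ratio than Mars1 and 1.85% a lower one than Sars.

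The other synthetase genes moved less. The log2 ratio was -0.46 for Tars, -0.42 for Gars, -0.33 for Aars outside the shared stretch, -0.16 for Wars, 0.09 for Dars and 0.21 for Nars, and 0.41 in the shared stretch. The median over the 8 genes was -0.32 with all of Aars (log2 ratio -0.21), while the median of all genes stood at 0.11. Set against that median, Mars1 was at -0.92, Sars at -0.89, Tars at -0.57, Gars at -0.53, Aars outside the shared stretch at -0.44, Wars at -0.27, Dars at -0.02 and Nars at 0.10. Dars thus changes sign with the scaling, and its log2 ratio is near 0 under both. Only positions with at least 25 calls in both libraries entered, and the lowest coverage of Aars, Mars1, Sars, Dars and Wars after STM2457 was 25.

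**Figure D4:**
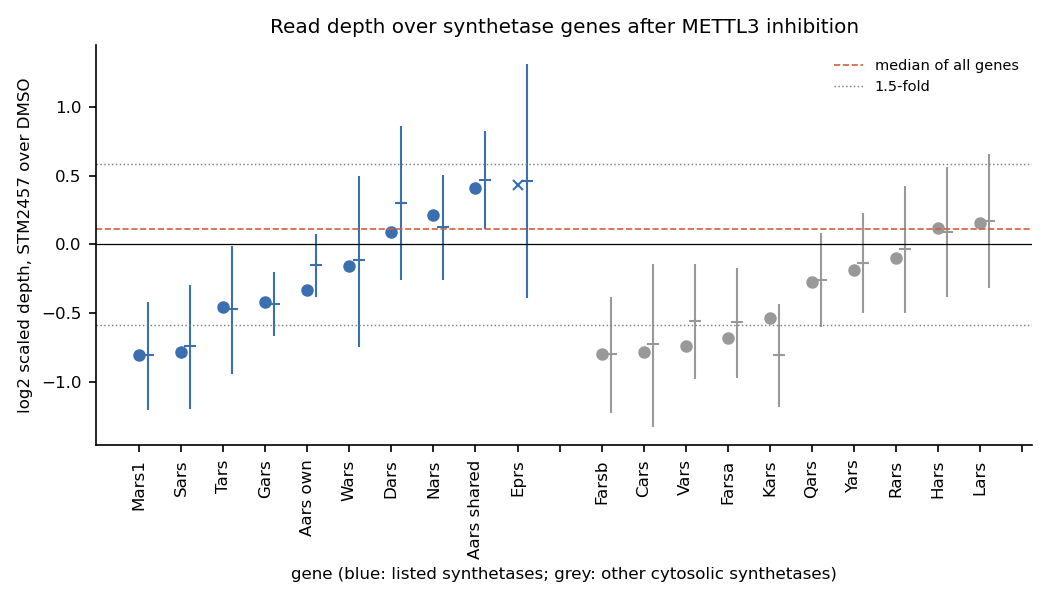
log2 ratio of scaled depth, STM2457 over DMSO, for the listed synthetase genes (blue) and 10 other cytosolic synthetases (grey): points are over all covered positions (a cross for Eprs, with 13 positions), and dashes with bars are the most covered position with its 95% counting interval. Mars1 and Sars lie below the lower dotted 1.5-fold line, as do 4 of the grey genes; the dashed line is the median of all genes.

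The 10 other cytosolic synthetases were all covered, and 4 of them were 1.5-fold or more lower and 0 higher, with a median log2 ratio of -0.41. The 3 with the most calls were Qars (-0.28), Vars (-0.74) and Farsa (-0.68). The remaining genes past the fold, named after their values were seen, were Farsb (-0.80) and Cars (-0.79). None of the 3 scaffolds of the multi-synthetase complex passed 1.5-fold: Aimp2 was at -0.13, Aimp1 at -0.01 and Eef1e1 at 0.55. Of 17 mitochondrial synthetases 2 could be counted, Tars2 at 0.09 and Aars2 at 0.16.

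ATF4 and its targets, the amino acid response genes, did not move in 1 direction. Of 26 listed genes 12 were counted, with a median log2 ratio of 0.04, 1 lower and 1 higher by the 1.5-fold rule. The 3 with the most calls were Atf4 itself (0.02), Asns, the asparagine synthetase (-0.27), and Eif4ebp1 (0.16). Psph (-0.73) and Nupr1 (1.06), named after their values were seen, passed the fold. Of 10 mESC markers counted 1 was lower, Nanog (-0.76), and 0 higher, with a median of -0.05.

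In the Mettl5 dataset, 11 sites lay on the synthetase genes, of 1886 over all genes: 1 of Aars outside the shared stretch and 4 inside it, 3 of Sars and 1 each of Tars, Nars and Eprs. None of the 11 passed Fisher's exact test with adjusted p under 0.05 in either clone against WT. Over all genes 0.265% of sites were lower and 0.265% higher in clone 1, and 0.318% and 0.265% in clone 2. At an unadjusted p under 0.05 the Sars 11 site of clone 2 was the 1 site of the 11.

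At Aars -4 the level was 60.7% (37 of 61 calls) in WT, whereas clone 1 had 55.1% (27 of 49) and clone 2 63.2% (48 of 76). The clones lay on either side of WT. At Sars 11 the WT level was 28.1% (9 of 32), that of clone 1 53.3% (16 of 30) and that of clone 2 54.8% (17 of 31), with unadjusted exact p of 0.0692 and 0.042 and adjusted p of 0.713 and 0.589. Both clones were higher than WT and close to each other, and neither difference passed after adjustment. The DMSO library of the other dataset had 55.8% at this position.

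Eprs had its site in exon 20 of 32, inside the CDS and away from the last exon. The level was 33.3% in WT (15 of 45 calls), and the clones had 53.8% (28 of 52) and 48% (24 of 50). The exact test gave adjusted p of 0.713 and 0.822. In the inhibition dataset this position was not analysed. At Tars -553 the levels were 32.4%, 35.9% and 22.6% for WT, clone 1 and clone 2, and at the Nars site 40 nt after the stop codon 30.6%, 30.3% and 23.4%. At both, clone 1 lay close to WT and clone 2 below it, and none of these differences passed the test.

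Dars had 1 position of 25% or more, in the CDS part of its last exon. In WT 1 of 26 valid calls was m6A there (3.85%), in clone 1 9 of 25 (36.0%) and in clone 2 9 of 28 (32.1%). Clone 1 has exactly 25 valid calls, so the position counts as a site with 25 calls or more and not with more than 25. The clones averaged 34.1% ± 2.73 (SD, n = 2), which is 30.2 percentage points above WT. The unadjusted p of Fisher's exact test was 0.00483 for clone 1 and 0.0119 for clone 2. Adjusted over the 2024 sites that 25 calls or more give, it was 0.338 and 0.357, so neither difference passed. The clones share the WT library, in which 1 call set the base. The position reached 25% in the clones only, and the same counts were then tested. The p-values of the exact test and the difference are therefore no independent evidence of a change.

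Of all calls at the Dars position 36.6% had failed in WT, and 26.5% and 36.4% in the clones. With failed calls counted in the denominator the levels were 2.44%, 26.5% and 20.5%.

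No other covered position of Dars reached 25% in any of the 3 libraries. Over its 12 DRACH positions the pooled level was 1.17% in WT (6 of 513 calls), and the clones had 1.39% (6 of 431) and 2.71% (12 of 442). The DRACH position at 340 nt had 6.06%, 12.1% and 24.2%, which puts clone 2 above the others. At 207 nt, where TG follows the adenosine, the levels were 15.2%, 14.8% and 16.7%, and this position had 4.88% in DMSO (2 of 41 calls) and 23.5% after STM2457 (8 of 34). Among 643 genes with sites of 25 calls or more in the 3 libraries, those whose level was nearest to that of Dars were Cops7a, Lsm2 and Nap1l1, at Euclidean distances of 8.11, 11 and 12 percentage points. Each of the 3 was also represented by 1 site, and their WT levels were 10.3%, 8.89% and 15.2%.

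**Figure D5:**
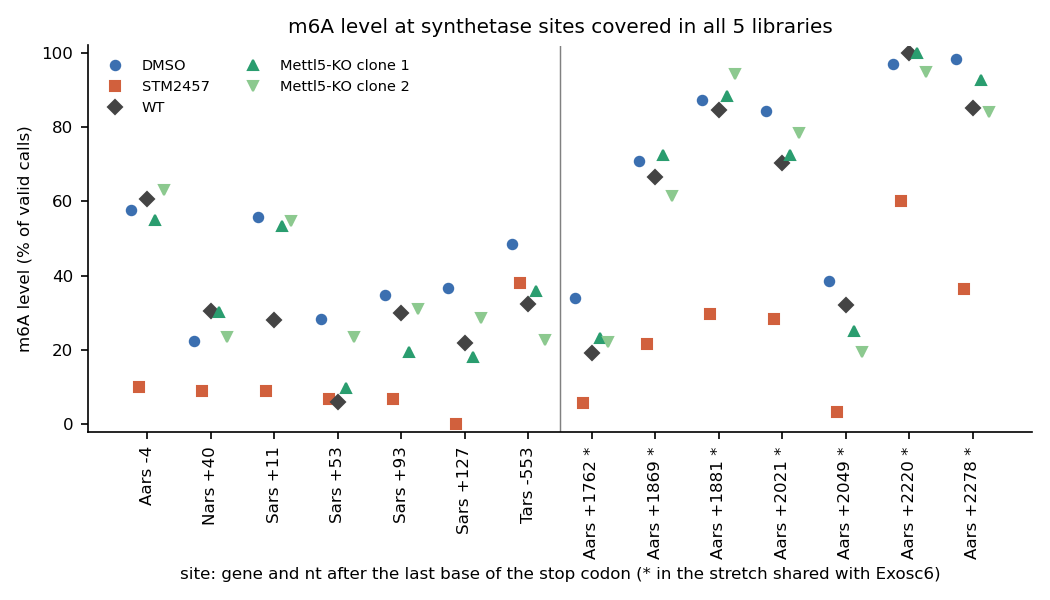
m6A level in percent of valid calls at the 14 synthetase positions that are a site in at least 1 dataset and were covered in all 5 libraries, with 1 point per library; names give the gene and the nt after the last base of the stop codon, and asterisks mark the stretch shared with Exosc6. The STM2457 library (orange squares) is lowest at 12 of the 14 positions, the exceptions being Sars 53 and Tars -553.

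Positions covered in all 5 libraries show how the untreated levels compare. At Aars -4 the DMSO and WT libraries had 57.8 and 60.7%, at Sars 127 36.6 and 21.9%, and at Sars 53 28.2 and 6.06%. In the shared stretch Aars 2220 had 97.0% in DMSO, 100% in WT (27 of 27 calls), 100% in clone 1 and 94.7% in clone 2. The DMSO and WT libraries come from different lines and runs, so dataset and line cannot be told apart, and no test was made between them.

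In the Mettl5 dataset Mars1 passed the fold again, here upward and in clone 1 only, while Sars did not pass it. In clone 1 Mars1 (log2 ratio 0.83 over WT) and Tars (0.82) were 1.5-fold or more higher, 2 of 8 genes against 11% of 999. In clone 2 the same genes had 0.17 and 0.49, and none of the 8 passed, against 14.6%. No synthetase gene was 1.5-fold higher in both clones, against 7.21% of all genes, and none was 1.5-fold lower in either, against 4.6% in clone 1 and 8.11% in clone 2. The level per covered position of Mars1 was 1.41 in WT and 2.50 and 1.58 in the clones, and that of Tars 1.64, 2.90 and 2.30. Mars1 was analysed here in exons 16 to 18 of 21 and Tars in exons 6 to 17 of 19, so neither in its last exon. Eprs, analysed in exons 19 and 20 of 32, did not pass the fold. The paper gives the longest median reads for the clone in which Mars1 and Tars passed, and the shortest for WT. The part of read length in these depth values was not tested.

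The other genes lay between -0.33 and 0.52. With all of its positions Aars had log2 ratios of 0.23 and 0.52 in clones 1 and 2. Outside the shared stretch Aars had 0.21 and 0.50, and inside it 0.42 and 0.63. Eprs had 0.44 and 0.24, Nars 0.11 and 0.29, Sars 0.23 and 0.13, Dars 0.0050 and 0.16, and Gars 0.05 and -0.33. The medians of all genes were 0.13 and 0.16, and of the 8 synthetase genes 0.23 and 0.20. Gars was the 1 gene below WT, and only in clone 2. Relative to the median of all genes Dars was at -0.12 and -0.0043, Nars at -0.02 and 0.13, Gars at -0.08 and -0.49 and Sars at 0.11 and -0.04, so the direction of these 4 genes in clone 1 or 2 depends on the scaling.

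Other cytosolic synthetases were counted for 6 of 10 genes, with 2 higher and 0 lower in each clone and medians of 0.44 and 0.42. Of the mitochondrial list the 1 gene counted was Lars2, at -5.52 and -5.20 over 66 positions, with a median of 1899 calls per position in WT. Scaled calls per position of Lars2 were 85.4 for the single WT library, against 1.86 and 2.32 for the clones. Lars2 was not among the mitochondrial genes counted in the inhibition dataset. Whether the WT value or the clone values of Lars2 are the unusual ones was not tested, because WT had 1 library. The 8 ATF4 genes counted had medians of 0.14 and 0.23, with 1 higher in clone 1 and 1 higher and 1 lower in clone 2. The scaffold Aimp2 was at 0.08 and 0.44. Of 9 mESC markers counted, 2 were lower and 1 higher by the 1.5-fold rule in each clone, with medians of 0.02 and 0.09. Zfp42 (-1.14 and -1.19) and Klf2 (-0.97 and -0.68), named after their values were seen, were lower in both clones, while Pou5f1 (0.60) was higher in clone 1 and Lin28a (0.93) in clone 2. Their part in the synthetase values was not tested.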

How the data were processed

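The authors ligated total RNA to poly-T adapters and sequenced the polyadenylated RNA directly (RNA004 chemistry), called bases and m6A with dorado, aligned reads to mm10 and made pileups with modkit. The deposited tables hold, per position, count columns (valid, m6A, unmodified, other modified, failed and differing calls) and a percent column with the m6A level. The count columns were used, and the level was recomputed from them; the deposited percent was not printed. Positions were placed on GENCODE M21 exons of the same strand with bedtools 2.31.1. A position on several transcripts of a gene took the principal one; for Wars, Wars-201.

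Per site, m6A and unmodified calls were compared by Fisher's exact test (two-sided, scipy 1.17.1, Python 3.11.15), with Benjamini-Hochberg adjustment over all 6201 or 1886 sites. Levels have exact (Clopper-Pearson) 95% intervals, relative decreases log-ratio intervals, and a level of 0 the limit that 3 counts allow. Depth is valid calls per 1000000 of the library, over genes with 20 or more positions, with a fold of 1.5 or more counted. The test was checked on simulated calls. Groups came from the sample labels; dose and time came from the study's methods.

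The members and gene lists were chosen with earlier results of these data known. Named genes are the 10 members, every member site, the 3 genes nearest to Dars, and up to 3 genes per list with the most calls in DMSO. Because Dars has no site with more than 25 calls, that search used sites of 25 calls or more. Alternatives covered the coverage minimum, level cutoff, failed calls, RefSeq-linked exons, DRACH, effect size, depth scaling and leaving out each clone. Leaving out the stretch shared with Exosc6 was chosen after the data were seen. Sequences on chromosome 18 (Nars) were not printed, and the sequence at the Dars site is not reported here.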

Additional observations from a re-analysis of the deposited data

How the results depend on the processing

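The count of 20 synthetase sites lower after STM2457 stayed within 1.5 times under 25 calls or more, 50 calls or more, failed calls in the denominator, RefSeq-linked exons, DRACH only and an added relative decrease of 50%. It was 35 with a level of 10% or more (of 59 sites) and 13 with 50% or more (of 13), which changes how many sites are tested. Without the stretch shared with Exosc6, chosen after the data were seen, it was 7 of 9. No single site changed direction or its side of the threshold under any of these, but the decrease at Tars -553 was 0.328% with failed calls in the denominator. The difference at the Dars site, 30.2 percentage points, ranged from 28.3 to 32.2 with either Mettl5-KO clone left out, and was 21 with failed calls in the denominator; with the calls of both clones summed it was 30.1. The 2 genes 1.5-fold lower after STM2457 became 0 at 2-fold. Dars depth after STM2457 turned from 0.09 to -0.023 with the median of all genes at 0. In the Mettl5 libraries the count of genes 1.5-fold higher was 0 to 2 with either clone left out, and it was 2, Mars1 and Tars, without clone 2. No paired analysis was possible because DMSO, STM2457 and WT had 1 library each. Coverage near 25 calls limits the Mettl5 sites: at the Dars site, 1 m6A call in WT sets the comparison.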
